A study of Mus musculus with 6 samples.

Results

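The 38 genes described here encode the aminoacyl-tRNA synthetases of B16F10 cells, an established line of mouse melanoma cells. They were found among the 27179 genes of the table as rows whose full name holds "tRNA synthetase" and whose symbol follows the usual pattern of this family. A symbol ending in 2 marked a mitochondrial enzyme (17 genes) and any other symbol a cytosolic enzyme (21 genes). Another 4 genes matched by name only, Aimp1, Aimp2, Aarsd1 and Prorsd1, and were not counted as members.

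Aminoacyl-tRNA synthetases join each amino acid to its tRNA and so feed the ribosome with charged tRNA. Mammalian cells hold one set for the cytosol and another for the mitochondrion, nearly all from separate nuclear genes, and a few genes make both forms. Several cytosolic enzymes sit together in the multi-synthetase complex, held by the scaffold proteins AIMP1, AIMP2 and EEF1E1. Cytosolic synthetase genes are also known as targets of ATF4, the transcription factor of the amino acid response, which binds composite elements shared with C/EBP factors.

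The wild-type cells had been cultured with 0.01% ozonated olive oil (OZO, 3 libraries) or with 0.01% olive oil that was not ozonated (OLO, 3 libraries) for 6 h. RNA was sequenced after preparation with a directional library kit. The study describes its B16F10 transcriptome data as coming from independent experiments, which the labels do not state. All values below are the authors' average log2 CPM (reads scaled to library size) over all 6 libraries, OLO and OZO together. No value belongs to a single library, so no spread between libraries can be given, and the difference between OZO and OLO was not analysed here. Levels of different genes are given per length, as log2 CPM per kb of all annotated exons joined, unless the longest transcript or the coding length is named. The paper does not name the annotation used for counting, so reads may have been counted over exons other than those used for length. Plain CPM values and their sums count reads and are not corrected for length. In bulk RNA such a level does not separate the number of expressing cells from the RNA per cell.

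The depth was recovered from the 6025 genes that shared the lowest average, as genes without reads do. This gave a geometric mean of 19641945 reads for the scaled library sizes, at which 1 CPM stood for 19.6 reads. It is not the number of reads sequenced. Reads per library below are worked back from the average log2 values. They are thus geometric means and can lie below the plain mean, most of all for genes with few reads. All 38 synthetase genes had reads and at least 1 CPM, and the lowest of them, Pars2, rested on 60.5 reads per library. Counting error alone was at most 0.076 on the log2 scale (standard error) for any of the 38 genes, but it leaves out the spread between libraries. The labels name the tissue as skin and the cells as melanoma. All 7 melanocyte lineage markers examined were present, from 109 CPM for Sox10 to 7052 CPM for Dct. Of the other skin cell types, the 4 keratinocyte markers reached at most 0.221 reads per library (Krt1), with Krt5 at no reads, and the 4 leukocyte markers at most 0.879 (Ptprc). The 5 fibroblast markers summed to 6.49 CPM and the 3 endothelial markers to 1.36 CPM. Some of these had reads, with the most for Pdgfra (63.9 per library) among fibroblast markers and Pecam1 (23.3) among endothelial markers.

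Promoter windows of 5 cytosolic genes held the letters TGATGNAA, a form of the composite element to which ATF4 is known to bind, and these 5 are shown for that reason. Each window runs from 250 bases before to 50 bases after a RefSeq start on GRCm38.p6 and is written 5′ to 3′ on the strand of the gene. Capitals mark the element, or its reverse complement where it lies on the opposite strand. Yars1 is at chr4:129189653-129189952 (plus strand), Gars at chr6:55037751-55038050 (plus) and Aars1 at chr8:111033592-111033891 (plus). Iars1 is at chr13:49681880-49682179 (plus) and Tars1 at chr15:11399609-11399908 (minus).
Yars1: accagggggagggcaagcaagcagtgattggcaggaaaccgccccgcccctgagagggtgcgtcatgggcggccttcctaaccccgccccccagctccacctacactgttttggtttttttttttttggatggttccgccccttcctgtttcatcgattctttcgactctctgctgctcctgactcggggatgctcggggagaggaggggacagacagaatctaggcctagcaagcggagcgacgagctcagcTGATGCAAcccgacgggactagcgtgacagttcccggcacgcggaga
Gars: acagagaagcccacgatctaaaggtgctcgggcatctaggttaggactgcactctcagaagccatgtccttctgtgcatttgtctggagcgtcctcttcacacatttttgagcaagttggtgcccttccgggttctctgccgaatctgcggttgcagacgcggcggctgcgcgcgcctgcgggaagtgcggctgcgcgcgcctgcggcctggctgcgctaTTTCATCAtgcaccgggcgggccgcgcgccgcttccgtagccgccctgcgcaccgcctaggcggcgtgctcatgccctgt
Aars1: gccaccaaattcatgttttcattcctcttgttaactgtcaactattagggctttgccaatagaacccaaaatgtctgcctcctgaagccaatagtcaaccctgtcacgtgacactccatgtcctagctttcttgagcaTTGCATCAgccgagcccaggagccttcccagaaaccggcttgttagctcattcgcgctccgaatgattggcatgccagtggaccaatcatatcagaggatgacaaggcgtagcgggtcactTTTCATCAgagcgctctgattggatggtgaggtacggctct
Iars1: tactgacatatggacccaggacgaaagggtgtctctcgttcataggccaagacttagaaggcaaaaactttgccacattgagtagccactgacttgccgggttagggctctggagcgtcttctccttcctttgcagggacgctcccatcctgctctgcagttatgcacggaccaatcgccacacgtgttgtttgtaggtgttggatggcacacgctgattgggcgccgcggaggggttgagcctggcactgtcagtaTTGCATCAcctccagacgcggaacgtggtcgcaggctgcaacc
Tars1: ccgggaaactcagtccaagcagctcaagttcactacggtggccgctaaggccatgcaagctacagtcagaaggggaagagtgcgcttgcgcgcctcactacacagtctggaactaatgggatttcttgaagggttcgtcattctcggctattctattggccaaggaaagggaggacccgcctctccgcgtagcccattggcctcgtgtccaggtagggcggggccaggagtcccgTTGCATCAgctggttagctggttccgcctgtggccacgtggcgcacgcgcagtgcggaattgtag

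RefSeq windows were matched by gene identifier for 28 of the 38 genes. Those with no matched window included the cytosolic Nars1, Rars1, Lars1, Wars1, Hars1, Cars1 and Vars1 and the mitochondrial Hars2 and Pars2. Searched on both strands, TGATGNAA occurred in 5 of 14 cytosolic genes (35.7%) and in 0 of 14 mitochondrial genes. Over all 27025 genes with windows of this length, 4.51% held it in at least 1 window. Counted by window, 3.97% of all 32851 held it. Aars1 held 2 copies, and the other 4 genes held 1 each. The stricter TGATGCAA, which is contained in TGATGNAA, was present in 4 cytosolic genes, Yars1, Aars1, Iars1 and Tars1, against 1.03% of all genes with windows. The longer TGATGNAAT, a form of TGATGNAA with 1 more base, was present in Gars, Aars1 and Iars1, against 1.08% of all genes with windows. These matches are letters in a window, and binding was not measured.

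**Figure D1:**
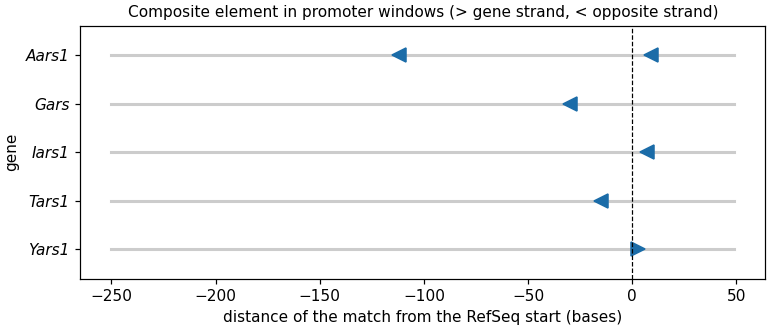
Positions of TGATGNAA in the 5 promoter windows with a match, one gene per row. The horizontal axis gives the distance in bases of the match's leftmost base from the RefSeq start (dashed line), and arrowheads give the strand. The 6 matches lie between -112 and 9 bases, and the Yars1 match alone is on the strand of the gene.

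The windows hold only bases near a start, and positions are given within them. In Yars1, the tyrosine enzyme, the element began 3 bases past the start on the strand of the gene. In Iars1, the isoleucine enzyme, it began 7 bases past the start, and in Tars1, the threonine enzyme, 15 bases before it. In Gars, the glycine enzyme, it began 30 bases before the start. In Aars1, the alanine enzyme, the copies lay at -112 and 9 bases from the start. The 5 genes with a match had a median level of 6.27 log2 CPM per kb, with a range from 4.61 to 8.04. The 9 cytosolic genes with a window and no match had a median of 5.64 and a range from 1.34 to 6.60, so the ranges overlapped. GC content of the windows had a median of 56.3% for the cytosolic and 58.0% for the mitochondrial genes, beside 52.7% over all windows. Atf4 itself averaged 360 CPM, a level of 7.26 log2 CPM per kb and above 99.0% of genes with reads. This is an RNA level over OLO and OZO together, and the activity of ATF4 protein was not tested.

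Cytosolic synthetase genes were expressed well above the mitochondrial ones. The median level was 5.34 log2 CPM per kb over 21 cytosolic genes and 1.78 over 17 mitochondrial genes, a difference of 3.56 or 11.8-fold. The cytosolic levels ran from 1.34 (Tars3) to 8.04 (Gars), and the mitochondrial levels from -0.26 (Ears2) to 4.80 (Lars2). The sets overlapped, but 20 of 21 cytosolic genes lay above the mitochondrial median and 0 of 17 mitochondrial genes lay above the cytosolic median. Of all CPM in the 38 genes, 6806 in sum, the cytosolic genes held 89.2%. Genes are not replicates, so this is a description of levels with no test.

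**Figure D2:**
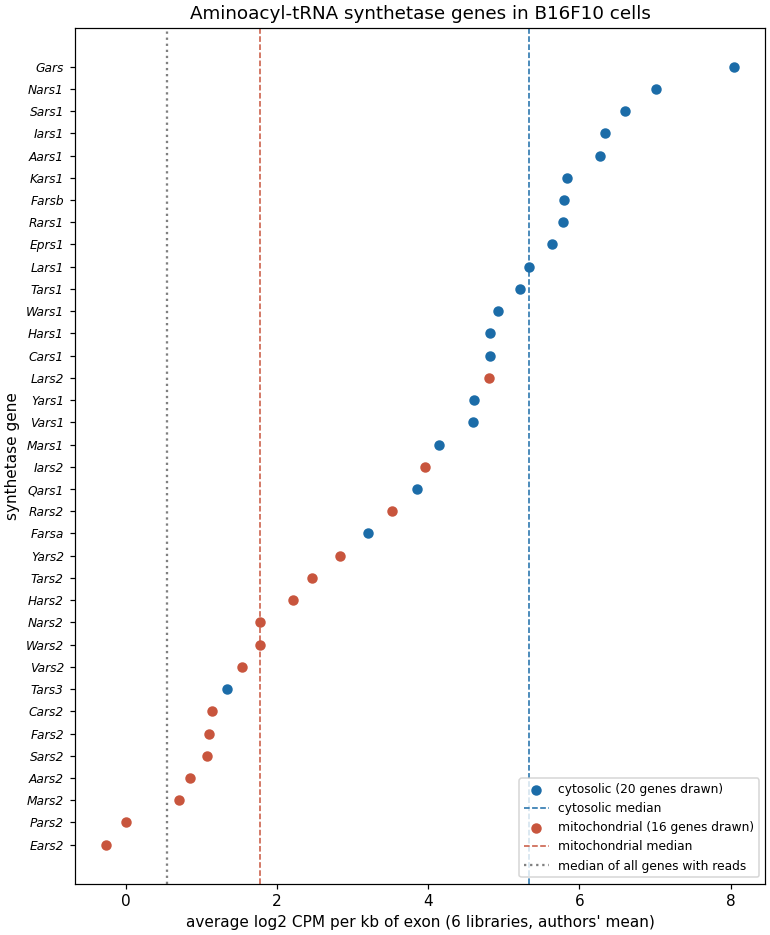
Average log2 CPM per kb of exon for 36 of the 38 synthetase genes, 1 point per gene, in order of level. Dashed lines mark the median of all 21 cytosolic (5.34) and all 17 mitochondrial (1.78) genes and the dotted line that of all genes with reads (0.55). Cytosolic genes fill the upper end, and Lars2 and Iars2 are the highest mitochondrial genes.

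Against the rest of the transcriptome, the cytosolic median lay above 94.4% of the 19227 genes with reads and a known exon length. The mitochondrial median lay above 58.8% of them. At or above the 90th percentile stood 16 synthetase genes, 15 cytosolic ones and Lars2. Only Pars2 and Ears2 lay below the median of genes with reads. That median includes many genes with hardly any reads. Among genes of at least 1 CPM, 11 synthetase genes stood at or above the 90th percentile, and Lars2 stood at percentile 84.9. In that set the cytosolic median stood at percentile 90.5 and the mitochondrial median at percentile 31.2. Below the midpoint of that set lay 13 of the 17 mitochondrial genes and, of the cytosolic genes, Tars3 alone.

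**Figure D3:**
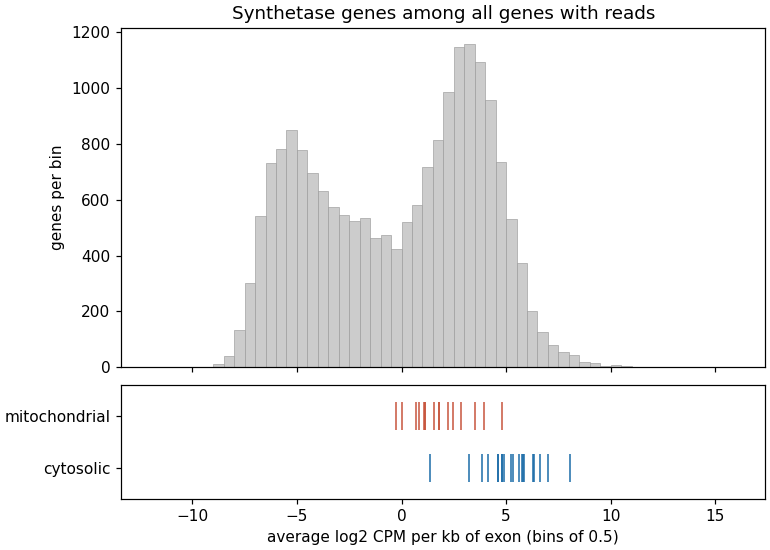
Upper panel, number of genes with reads in bins of 0.5 of average log2 CPM per kb of exon. Lower panel, the same axis with 1 tick for each of 36 synthetase genes, where the cytosolic genes (median 5.34) lie mostly on the upper flank of the right-hand peak and the mitochondrial genes (median 1.78) mostly on its lower flank.

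The highest cytosolic gene was Gars, which makes the glycine enzyme for both cytosol and mitochondrion. It averaged 823 CPM and stood at 8.04 log2 CPM per kb, above 99.5% of genes with reads. Nars1, for asparagine, followed at 7.01 and Sars1, for serine, at 6.60. Iars1, for isoleucine, stood at 6.34 and Aars1, for alanine, at 6.27. Per length, Gars lay 1.04 above Nars1, the widest gap between neighbours in the order of the 38 genes, but with coding length the gap was 0.17 and others were wider. Eprs1, which joins both glutamate and proline in a single protein, had more reads than any other synthetase gene at 902 CPM. Its joined exons span 18102 bases, however, and per length it stood at 5.64, with 9 cytosolic genes above it. With its longest transcript, of 5638 bases, 2 cytosolic genes stood above it, and with coding length 4 did.

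At the lower end of the cytosolic set was Tars3, a second threonine enzyme, with 17.1 CPM and 1.34 log2 CPM per kb. Its relative Tars1 stood at 5.22, a level 14.7-fold higher. Farsa encodes the alpha subunit of the phenylalanine enzyme and stood at 3.21. Farsb encodes the beta subunit of the same enzyme and stood at 5.80, which was 6.04-fold higher, or 3.01-fold with coding length. Qars1, for glutamine, stood at 3.85, Mars1, for methionine, at 4.14 and Vars1, for valine, at 4.59. Yars1, at 4.61, lay within counting error of Vars1.

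Between these ends, Kars1 (lysine) stood at 5.83 log2 CPM per kb and Rars1 (arginine) at 5.78. Rars1 and Farsb did not differ beyond counting error. Lars1 (leucine) stood at 5.34, Wars1 (tryptophan) at 4.92, Hars1 (histidine) at 4.82 and Cars1 (cysteine) at 4.82. Hars1, Cars1 and the mitochondrial Lars2 were neighbours in order, and neither step between them exceeded counting error. In the whole order, 7 of 37 steps between neighbours were within counting error, taken as the 95% limit of the difference. That limit leaves out the spread between libraries and the choice of length, so the other steps are not thereby settled.

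The 8 enzymes of the multi-synthetase complex ran from 3.85 (Qars1) to 6.34 (Iars1), a 5.62-fold range. Their median was 5.71 log2 CPM per kb, and that of the 13 cytosolic genes outside the complex was 4.92. With coding length in place of exon length the difference between these medians shrank from 0.78 to 0.28. The scaffold genes stood lower than the median enzyme, with Eef1e1 at 4.34, Aimp2 at 4.26 and Aimp1 at 3.09 log2 CPM per kb.

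Synthetases fall into classes by the fold of their catalytic domain, and Eprs1, which has a domain of each, was counted in class I. The 10 cytosolic genes of class I had a median of 4.87 log2 CPM per kb and the 11 of class II a median of 5.83. The 5 highest cytosolic genes were of class II except Iars1. In the mitochondrial set the order was the other way, with a median of 1.78 over 9 genes of class I and 1.44 over 8 of class II. The ranges of the classes overlapped in both compartments.

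In the mitochondrial set Lars2, for leucine, stood apart at 309 CPM and 4.80 log2 CPM per kb. Iars2, for isoleucine, followed at 3.96, Rars2, for arginine, at 3.52 and Yars2, for tyrosine, at 2.84. Lars2 alone held 309 of the 733 CPM of the 17 mitochondrial genes. Mouse Lars2 is known as a gene that can collect reads of ribosomal RNA. The other 4 genes listed for that property were not in the table, so the share of such reads in Lars2 was not tested. The lowest genes were Ears2, for glutamate, at -0.26 and Pars2, for proline, at 0.01, and their 4.30 and 3.11 CPM rested on 84.0 and 60.5 reads per library. Mars2, for methionine, stood at 0.71, Aars2, for alanine, at 0.85 and Sars2, for serine, at 1.07. Mars2 has a single annotated transcript of 11294 bases, the longest exon length of the mitochondrial set. Its low place depends on that length. With coding length Mars2 stood at 3.39, above Aars2 (1.54) and Sars2 (2.17).

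Several mitochondrial genes were close together. Tars2 (threonine) stood at 2.47 and Hars2 (histidine) at 2.21. Nars2 (asparagine) and Wars2 (tryptophan) both stood at 1.78 and did not differ beyond counting error. Vars2 (valine) stood at 1.54, Cars2 (cysteine) at 1.15 and Fars2 (phenylalanine) at 1.11. The steps from Cars2 to Fars2 and from Fars2 to Sars2 were also within counting error.

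The cytosolic genes serve 20 amino acids and the mitochondrial genes 17. For glycine and lysine the same genes, Gars and Kars1, make both forms. For glutamine, mitochondria charge the tRNA with glutamate and convert it with an amidotransferase of 3 subunits. Its subunit genes Gatb and Qrsl1 stood at 1.75 and 1.88 log2 CPM per kb, near the mitochondrial synthetase median of 1.78. Gatc, the smallest subunit, stood at 4.25. Mtfmt, which formylates the methionine on the mitochondrial initiator tRNA, stood at 2.18. Per exon length this was above Mars2 (0.71), but in plain CPM Mtfmt was slightly lower, at 16.6 against 18.4.

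The 17 shared amino acids gave 19 pairs of a cytosolic and a mitochondrial gene, since Eprs1 pairs with Ears2 and Pars2, and both Farsa and Farsb pair with Fars2. Tars1 and Tars3 both pair with Tars2. Per length, the cytosolic gene was higher in 18 of 19 pairs, by more than 4-fold in 16, with a median of 8.31-fold. With coding length it was higher in 17 pairs, by more than 4-fold in 12, with a median of 5.75-fold. Pairs that share a gene are not independent of each other. Eprs1 exceeded Ears2 59.6-fold and Pars2 49.6-fold. Sars1 exceeded Sars2 46.2-fold, Aars1 exceeded Aars2 43.0-fold and Nars1 exceeded Nars2 37.4-fold. The sizes and their order depended on the length used. With the longest transcript Eprs1 exceeded Ears2 182-fold and Pars2 157-fold. With coding length these were 72.5-fold and 98.1-fold, and Aars1 exceeded Aars2 84.9-fold and Nars1 Nars2 19.9-fold.

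**Figure D4:**
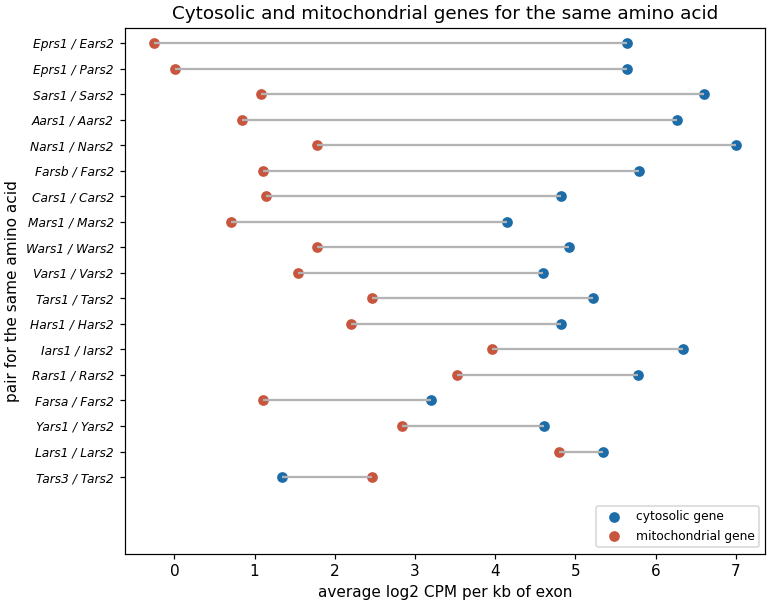
Average log2 CPM per kb of exon for 18 of the 19 pairs of cytosolic and mitochondrial genes that serve the same amino acid, joined by a line and ordered by their difference. The cytosolic gene is to the right in 17 of the pairs drawn. The exception, at the bottom, is Tars3 with Tars2.

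Farsb exceeded Fars2 25.9-fold, whereas Farsa exceeded it 4.28-fold. Cars1 stood 12.7-fold above Cars2, Mars1 10.8-fold above Mars2 and Wars1 8.83-fold above Wars2. With coding length Mars1 stood 2.11-fold above Mars2, whose annotated transcript is mostly not coding, Farsb 9.40-fold above Fars2, Cars1 7.70-fold above Cars2 and Wars1 3.83-fold above Wars2. Vars1 over Vars2 gave 8.31-fold and Tars1 over Tars2 6.74-fold. The difference was 6.12-fold for histidine, 5.20-fold for isoleucine, 4.77-fold for arginine and 3.41-fold for tyrosine. With coding length it was 3.47-fold for histidine, 2.48-fold for isoleucine, 4.87-fold for arginine and 5.38-fold for tyrosine. Lars1 exceeded Lars2 by only 1.45-fold, and with the longest transcript or the coding length in place of all exons the order turned, with Lars2 above Lars1 (differences of -0.54 and -0.89 on the log2 scale). Tars3 was lower than Tars2, at 0.459 of its level. Counting error of these differences was at most 0.076 on the log2 scale.

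The 38 genes lie on 15 chromosomes of GRCm38 and some are neighbours. Hars1 (chromosome 18, 36766528 to 36783205, minus strand) and Hars2 (36783008 to 36792562, plus strand) are arranged head to head, and 195 bases of their exons overlap. Eprs1 (chromosome 1, 185363044 to 185428360, plus strand) and Iars2 (185284726 to 185329396, minus strand) point away from each other across 33.6 kb. Vars1 and Vars2 lie 639 kb apart on chromosome 17, and Aars1 and Kars1 936 kb apart on chromosome 8. Gars lies on chromosome 6 from 55038007 to 55079500 (plus strand) and Lars2 on chromosome 9 from 123366927 to 123462666 (plus strand).

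Several synthetase genes start head to head with another gene. A protein-coding neighbour on the opposite strand, starting within 1000 bases upstream or overlapping by up to 200 bases, was annotated for 9 of the 38 genes (23.7%). Of 20753 protein-coding genes in the table, 8.14% had one. They included the cytosolic Hars1, Kars1 and Yars1 and the mitochondrial Hars2, Ears2, Fars2, Sars2 and Rars2. The partner of Sars2 is Mrps12, which encodes a mitochondrial ribosomal protein and averaged 3.34 log2 CPM, and that of Fars2 is Lyrm4, a factor of iron-sulfur cluster assembly. Rars2 faces Orc3, a subunit of the origin recognition complex, with starts 13 bases apart.

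Exons of 15 synthetase genes overlap those of another annotated gene. Overlap on the same strand was found for Aars1 with Exosc6 (14.3% of the exon length) and Tars3 with Tm2d3 (1.78%). The largest overlap was that of Iars2 with Rab3gap2 on the opposite strand, 22.9% of its exon length. Mars1 overlaps 68 bases of Ddit3, which encodes the stress factor CHOP and averaged 7.82 log2 CPM. The kit keeps strand, but the strand setting used in counting is not given in the sources used here, so reads of such overlaps cannot be assigned with certainty. Without the 15 genes the difference between the cytosolic and mitochondrial medians was 3.93.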

How the data were processed

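RNA-seq libraries of B16F10 cells treated with OLO (3) or OZO (3) were aligned by the authors to mm10 with HISAT2 (2.1.0) and counted per gene with featureCounts (2.1.1). The log2 values analysed here are the authors' average log2 CPM over all 6 libraries from limma-voom (3.58.1), which adds 0.5 reads to each count. The deposited table also holds the authors' log2 fold changes, moderated statistics, p-values and log-odds of OZO against OLO, and none of these was used. The planned tests of OZO against OLO assumed values of each library. No test was run, since the averages carry no spread between libraries.

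The members and gene lists were chosen with earlier results of these data known. Synthetase genes were named without a choice by value, except that some single-gene values are not reported here, although counts and medians cover all 38 genes. Other genes came from fixed lists (complex scaffolds, mitochondrial amidotransferase, tRNA handling, ATF4 and cell type markers). Neighbours of synthetase genes were named for their position. Exon, transcript and coding lengths and positions came from GENCODE M21 (GRCm38), which held 23906 of 24126 Ensembl identifiers. Whether the authors counted reads over the same exons is not stated in the paper. Promoter windows came from RefSeq (GRCm38.p6). Formulas were tested on simulated data. Python 3.11.15, numpy 2.4.6, pandas 2.3.3 and matplotlib 3.10.9 were used. Alternatives were other lengths, ranking among genes of at least 1 CPM, leaving out overlapping genes or Gars and Kars1, and other letters of the element.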

Additional observations from a re-analysis of the deposited data

How the results depend on the processing

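No paired analysis was possible because each level is an average over all 6 libraries. For the same reason another normalization, another pseudocount, a filter on low values, a replicate block and leaving out each replicate were not run for the difference between OZO and OLO. A change of over 0.148 on the log2 scale, the 95% limit of the largest counting error, or of over 1.5 times in a count, was taken as a move.

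With coding length in place of exon length, the difference between the cytosolic and mitochondrial medians was 2.71 in place of 3.56, and that between complex and free cytosolic enzymes 0.28 in place of 0.78. The number of genes at or above the 90th percentile was then 10 in place of 16. Ranked among genes of at least 1 CPM, with exon length, that number was 11. Without genes with an exonic overlap the difference between cytosolic and mitochondrial medians was 3.93. It was 3.50 with the longest transcript as length and 3.44 without Gars and Kars1. As a filter on the members, the limit of 1 CPM removed none of the 38 genes and tests nothing for this difference. Of 38 pair differences under another length, 6 stayed within the limit, 30 kept their direction but moved beyond it, and 2 turned. Lars1 minus Lars2 turned to -0.54 with the longest transcript and to -0.89 with coding length. The element was found in 5 genes as TGATGNAA, in 4 as TGATGCAA and in 3 as TGATGNAAT.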

Other observations

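Genes that act on tRNA before and after charging covered a wide range in these cells. Trnt1, which adds the CCA end, averaged 4.69 log2 CPM per kb over the 6 libraries. Trmt10c, Hsd17b10 and Prorp, the subunits of mitochondrial RNase P, averaged 4.43, 3.89 and 2.04. Elac2, which trims tRNA 3′ ends in nucleus and mitochondrion, averaged 3.04, and its relative Elac1 averaged -1.90, lower than any synthetase gene. Pop1 and Rpp30, of nuclear RNase P, averaged 3.55 and 2.97.

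Among genes that clear misloaded tRNA, Aarsd1 averaged 3.53, Dtd1 3.15, Dtd2 2.57 and Prorsd1 2.53 log2 CPM per kb, so all 4 lay above the median mitochondrial synthetase (1.78). Among genes that release peptides from tRNA, Ptrh2 averaged 3.03, Mrpl58 2.91 and Ptrhd1 0.67. The elongation factors that receive charged tRNA also stood higher for the cytosol, with Eef1a1 of the cytosol at 11.33 and Tufm of the mitochondrion at 4.82. In the route to selenocysteine, the elongation factor gene Eefsec averaged 4.73, and Sepsecs and Pstk, which turn seryl-tRNA into selenocysteyl-tRNA, averaged 1.27 and 0.87. The kinases that phosphorylate eIF2alpha upstream of ATF4 averaged 4.28 (Eif2ak2), 4.02 (Eif2ak1), 3.46 (Eif2ak3) and 2.89 (Eif2ak4). These are averages of OLO and OZO libraries with no spread between libraries.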
